A study of Mus musculus with 48 samples.

Results

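The proteasome genes of mouse liver were followed under timed sleep restriction (TSR), as 48 gene symbols out of 21399 in the liver array table. They were taken by name, as all symbols that begin with Psma, Psmb, Psmc, Psmd, Psme, Psmf or Psmg and a number, and each gene was read from its probe set with the highest mean signal, as 6 of the genes had several among 55 in all. The rule gave 18 core genes (Psma and Psmb), 24 regulatory genes (Psmc, Psmd and Psme) and 5 genes of an inhibitor and of assembly chaperones (Psmf and Psmg). The remaining symbol, Psmc3ip, names a partner protein of meiotic recombination that only borrows the name of a subunit. It lay below the signal filter and enters no count. A probe set was tested when it had a symbol and its mean log2 signal exceeded the median of the table, a geometric mean signal of 95.1, and 43 of the 47 proteasome genes passed. Psma8 of the testis proteasome, Psmb11 of the thymus proteasome and the chaperone genes Psmg3 and Psmg4 did not pass. Psmb8, an immunoproteasome gene, was not analysed here.

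The study compared TSR mice with control mice. TSR mice were male Bl6J mice of 10-12 weeks that were held awake with gentle handling between ZT0 (lights on) and ZT6 for 5 days in a row, slept freely for 2 days and were restricted again for 5 days. Control mice were of the same sex, strain and age and were left undisturbed, and all mice could eat at any time. Livers were collected at ZT1 and ZT7 in the light phase and at ZT13 and ZT19 in the dark phase, with 3 samples per treatment and time and 24 arrays in all. By the study's methods the collection began in an evening of the second restriction block, so that the dark phase livers of TSR mice were taken before their ZT1 and ZT7 livers.

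The proteasome is the protease of cytosol and nucleus that destroys proteins marked with ubiquitin. Its core particle is a barrel of stacked rings, in which the alpha subunits (Psma) form the outer rings and the gate, and the beta subunits (Psmb) form the inner rings with the cutting sites. The regulatory particle (Psmc and Psmd) caps the barrel, where its base of ATPases unfolds the substrate and its lid removes ubiquitin, while the activators (Psme) can dock in place of that cap. In the liver it turns over enzymes and damaged proteins, and interferon replaces its standard cutting subunits with those of the immunoproteasome.

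Signals are the authors' normalized intensities on a linear scale, and each change is TSR minus control on the log2 scale. Changes were tested with limma across the 12814 tested probe sets, with p-values adjusted over all of them by the Benjamini-Hochberg method, and a gene is said to have risen or fallen where its adjusted p is under 0.05. Arrays 1 to 12 of the labels are the TSR samples and arrays 37 to 48 the control samples, so TSR and the numbering cannot be told apart. As these are bulk samples, fewer cells of a type and less RNA per cell cannot be told apart either. The sources do not say whether an array held the RNA of 1 mouse or of several. If they shared animals, the p-values would measure only the spread between samples. The median signal of an array ran between 89.0 and 109 in TSR liver and between 84.5 and 101 in control liver. There were 5 arrays with a shared pattern across the table, namely TSR ZT1 replicate 3, control ZT7 replicate 3 and all 3 control ZT19 samples. Their deviations from the mean of all arrays correlated with each other at r = 0.51 to 0.89 across the tested probe sets, while control ZT7 replicate 3 and TSR ZT1 replicate 3 correlated with the other samples of their own groups at -0.19 to 0.027. The summed signal of the 8 measured pancreatic acinar markers was 7411 in TSR ZT19 replicate 3, against 458 to 651 in the control samples. A part of the results that rest on these samples is given with and without them.

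Averaged over the 4 times, proteasome genes were mostly higher in TSR liver. Of the 43 tested genes, 18 rose (41.9%) and 4 fell, with a median change of 0.12. Across all tested probe sets 13.8% were called higher and 13.2% lower, and the median change was 0.019. The core particle carried most of the increase, as 11 of its 16 tested genes rose (68.8%) and 0 fell, with a median of 0.20 and a range of -0.01 to 0.45. Of the 24 regulatory genes 7 rose (29.2%) and 4 fell, with a median of 0.073 and a range of -0.19 to 0.36. Of the inhibitor and the chaperones 0 of 3 passed the test in either direction in limma. An unadjusted p under 0.05 was found in 0 of the 3, against 5117 of the 12814 tested probe sets. At 3 or more of the 4 times all TSR samples exceeded all control samples in 6 core and 4 regulatory genes, as in 3.84% of all tested probe sets. With the 5 arrays of the shared pattern left out, 13% of all tested probe sets rose and 11.3% fell in the mean over ZT1, ZT7 and ZT13. In that mean 11 core genes were higher and 0 lower, and 7 regulatory genes were higher and 2 lower. These were not all the same genes, as Psma2, Psma4 and Psmd4 no longer passed (adjusted p = 0.051, 0.0582 and 0.105) and Psmb6, Psmb7 and Psmd2 did.

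**Figure D1:**
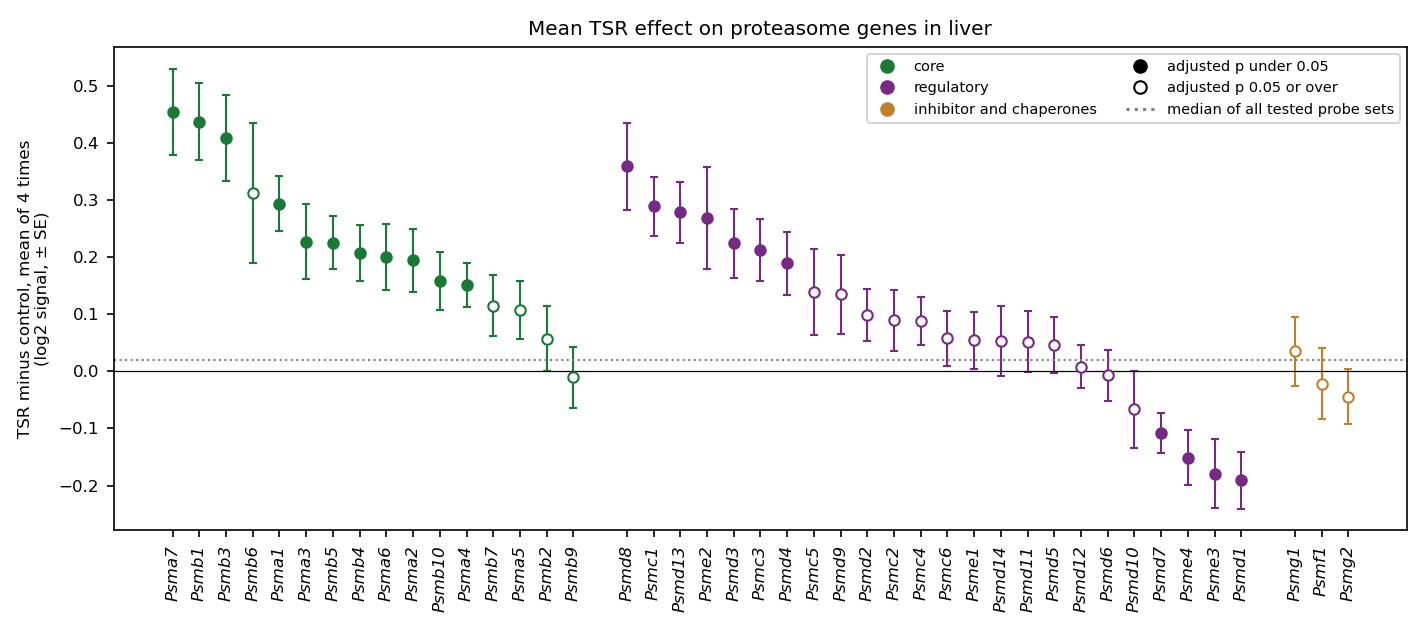
Mean change of each tested proteasome gene in liver, as TSR minus control averaged over the 4 times on the log2 scale (y axis, bars give the SE), with genes on the x axis ordered within the core, regulatory, and inhibitor and chaperone classes. Filled points passed an adjusted p of 0.05, and the dotted line is the median of all tested probe sets, 0.019. The core points lie almost all above that line, from 0.45 in Psma7 to -0.01 in Psmb9, while the regulatory points run on both sides of 0.

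The alpha ring, which opens and closes the entry to the barrel, had 6 of its 7 tested genes higher. Psma7, which encodes one of these ring subunits, had signals of 276 to 572 (median 424) in TSR liver and 249.6 to 359 (median 309) in control liver. The upper part of the TSR range lay clear of the control samples, and only TSR ZT1 replicate 3 and TSR ZT19 replicate 2 fell among them. Its mean change was 0.45 ± 0.075 (SE), adjusted p = 0.00047, a 1.37-fold difference. Psma1, another alpha subunit, ran from 848 to 1283 (median 1071) in TSR liver and 763 to 929 (median 834) in control liver. Its lowest TSR samples stood at ZT1 and ZT19 and overlapped the control samples there, and those at ZT7 and ZT13 did not. The change was 0.29 ± 0.048 (SE), adjusted p = 0.000443. Psma2, Psma3, Psma4 and Psma6 rose by 0.15 to 0.23, and Psma5 had a change of 0.11 ± 0.051 (adjusted p = 0.123). The 3 probe sets of Psma3 carry 1 accession, as do the 2 each of Psma5, Psmb1, Psmc1 and Psme2, so which copy of such a gene a probe set measures cannot be told apart.

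The beta ring subunits without a cutting site rose with the alpha ring in 3 of 4 genes. Psmb1, a structural beta subunit, had signals of 325 to 626 (median 474) in TSR liver and 286 to 415 (median 358) in control liver. At ZT7, ZT13 and ZT19 all TSR samples lay above all control samples of the same time, and at ZT1 the groups overlapped. The mean change was 0.44 ± 0.067 (SE), adjusted p = 0.000279, the smallest adjusted p among the core genes. A second probe set of Psmb1 with a lower signal gave a mean change of 0.31 (adjusted p = 0.0283). At ZT7, ZT13 and ZT19 it gave 0.44, 0.50 and 0.013 (adjusted p = 0.14, 0.089 and 0.97). The first gave 0.58, 0.47 and 0.64 at these times. Psmb3, another structural subunit of this ring, had signals of 461 to 854 (median 773) in TSR liver and 399.9 to 701 (median 627) in control liver. The 5 arrays of the shared pattern gave its 5 lowest values, at 461 in TSR ZT1 replicate 3, 463 in control ZT7 replicate 3 and 400.0, 399.9 and 443 in the control samples at ZT19. Its mean change was 0.41 ± 0.075 (SE), adjusted p = 0.000952, and with ZT19 left out it was 0.26 (adjusted p = 0.056). With all 5 of these arrays left out it was 0.296 and passed (adjusted p = 0.00266). Psmb4 rose by 0.21 ± 0.048, and Psmb2 had 0.057 ± 0.057 (adjusted p = 0.475).

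Of the 3 standard cutting subunits 1 rose in the mean over the day. Psmb5, the chymotrypsin-like subunit and the target of the drug bortezomib, had signals of 599 to 804 (median 709) in TSR liver and 518 to 654 (median 592) in control liver. The change was 0.23 ± 0.046 (SE), adjusted p = 0.00196, with the TSR samples above all control samples at ZT7, ZT13 and ZT19 and overlapping them at ZT1. Psmb6, the caspase-like subunit, had a larger change of 0.31 ± 0.12 that did not pass the test (adjusted p = 0.0647), as its values spread from 611 to 1277 (median 735) in TSR liver and 468 to 1164 (median 529) in control liver. The high control samples, from 904 up, were ZT7 replicate 3 and the 3 of ZT19, and among TSR samples ZT1 replicate 3, ZT13 replicates 2 and 3 and ZT19 replicate 3 also lay above that value. All 5 arrays of the shared pattern are thus among its high values, and with them left out the change was 0.64 (adjusted p = 0.001). Psmb7, the trypsin-like subunit, had 0.12 ± 0.053 (adjusted p = 0.11).

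Of the 2 tested immunoproteasome genes of the core 1 rose in the mean. Psmb10, the interferon-inducible counterpart of the trypsin-like subunit, ran from 134 to 216 (median 157) in TSR liver and 124 to 172 (median 143) in control liver. Both ranges overlapped widely, and the change was 0.16 ± 0.05 (SE), adjusted p = 0.0253. Under quantile normalization it was 0.10 (adjusted p = 0.16). Psmb9, the counterpart of the caspase-like subunit, had 222 to 392 (median 266) in TSR liver and 217 to 341 (median 281) in control liver, with a mean change of -0.01 ± 0.053 (adjusted p = 0.902).

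**Figure D2:**
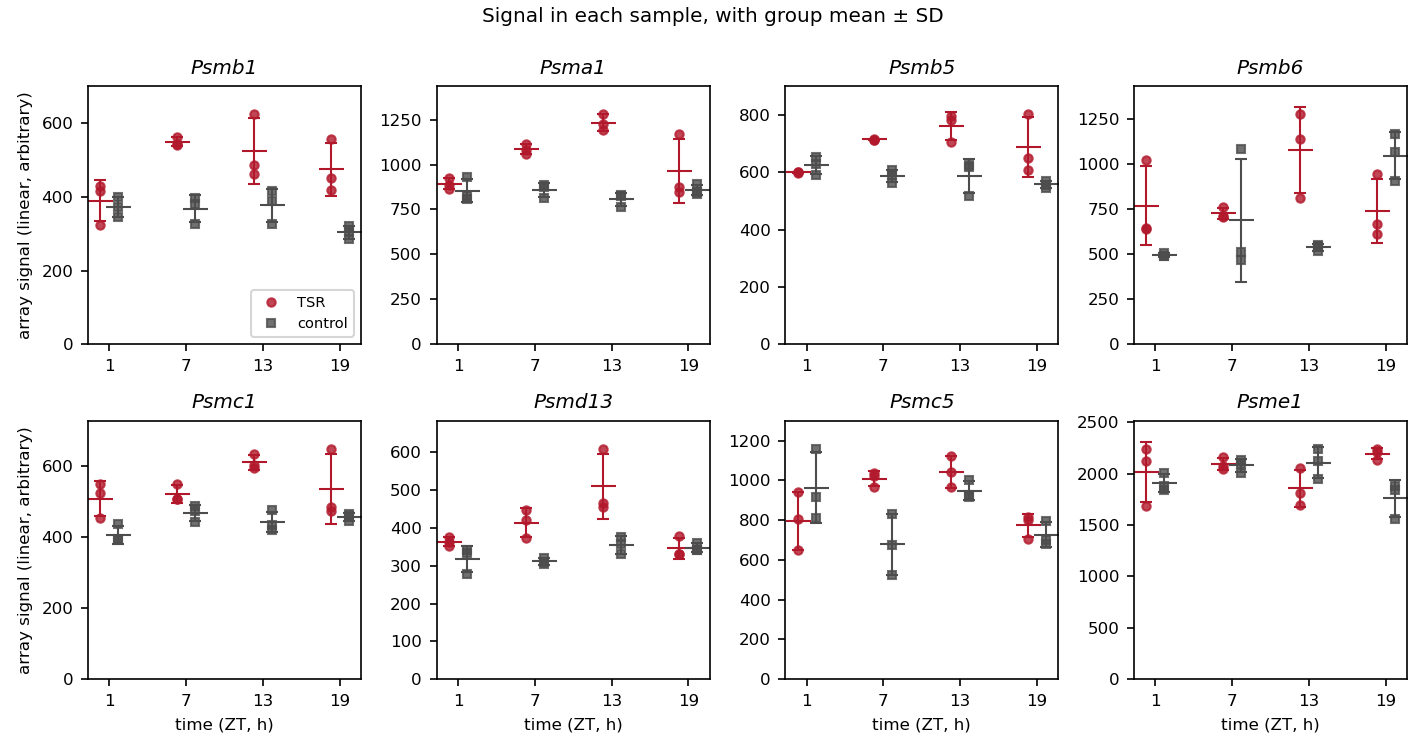
Array signal of 8 proteasome genes in each liver sample (y axes, linear arbitrary units from 0) against time of day (x axes, ZT in hours), with TSR samples as red circles left of control samples as grey squares, and bars at the group mean ± SD (3 samples each). Psmb1, Psma1 and Psmb5 separate at ZT7 and ZT13, Psmc5 separates at ZT7, Psme1 separates at ZT19, and Psmb6 has high values in the control samples at ZT19.

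The base of the regulatory particle had 2 of its 6 ATPase genes higher and 0 lower. Psmc1, one of the ATPases that pull the substrate into the core, had signals of 452 to 649 (median 536) in TSR liver and 390.2 to 486 (median 444) in control liver. At each of the 4 times all TSR samples lay above all control samples of that time, which held for 0.351% of all tested probe sets and for no other tested member, though by a small margin at ZT19. The mean change was 0.29 ± 0.051 (SE), adjusted p = 0.000785. A second probe set of Psmc1 gave 0.23 ± 0.048 (adjusted p = 0.00258), with the TSR samples above the control samples at ZT1, ZT7 and ZT13 and overlapping them at ZT19. Psmc3, another ATPase of the base, had 528 to 789.7 (median 655) in TSR liver and 517 to 628 (median 548) in control liver. Its lowest TSR samples were at ZT1 and ZT19 and lay within the control range, and the change was 0.21 ± 0.054 (SE), adjusted p = 0.00803. Among the other base subunits Psmd4, a receptor that binds ubiquitin chains, rose by 0.19 ± 0.055, and Psmd1, the large scaffold on which ubiquitin receptors sit, fell with a change of -0.19 ± 0.049 (SE), adjusted p = 0.00827. Psmd1 signals were 1018 to 1596 (median 1335) in TSR liver and 1261 to 1753 (median 1453) in control liver, and at 3 of the 4 times all its TSR samples lay below all control samples.

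In the lid 3 of 8 genes rose and 1 fell. Psmd13, a structural lid subunit, had signals of 330.0 to 611 (median 378) in TSR liver and 278 to 377 (median 337) in control liver. At ZT1, ZT7 and ZT13 all TSR samples were higher than all control samples of that time, and at ZT19 the groups overlapped. Its change was 0.28 ± 0.053 (SE), adjusted p = 0.00118. Psmd8, also a structural subunit of the lid, had signals of 863 to 1468 (median 1249) in TSR liver and 696 to 1186 (median 1029) in control liver. TSR ZT1 replicate 3 and control ZT7 replicate 3, both among the 5 arrays, were the lowest samples of their treatments. The change was 0.36 ± 0.076 (SE), adjusted p = 0.00239, and with the 5 arrays left out it was 0.292 (adjusted p = 0.00189). Psmd3 rose by 0.22 ± 0.061, while Psmd7, the partner of the deubiquitinating lid subunit, fell with a change of -0.11 ± 0.036 (SE), adjusted p = 0.0307. That fall did not pass with the 5 arrays left out, at -0.08 (adjusted p = 0.22). Psmd14, the deubiquitinating enzyme itself, had 0.053 ± 0.061 (adjusted p = 0.538).

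The activators, which open the core without ATP, went both ways. Psme2, a subunit of the interferon-induced activator, had 312 to 627 (median 403) in TSR liver and 254 to 441 (median 378) in control liver. The highest TSR samples stood at ZT13, and the mean change was 0.27 ± 0.089 (SE), adjusted p = 0.0319. A second probe set of Psme2 gave 0.081 (adjusted p = 0.44). Psme1, its partner subunit in the same ring, had 1685 to 2237 (median 2099) in TSR liver and 1556 to 2245 (median 1978) in control liver and a change of 0.054 ± 0.05 (adjusted p = 0.443). Psme3, the nuclear activator, had 899 to 1319 (median 1126) in TSR liver and 1072 to 1374 (median 1206) in control liver and fell with a change of -0.18 ± 0.06 (SE), adjusted p = 0.0332. Psme4, a large single-chain activator, had 1072 to 1507 (median 1255) in TSR liver and 1209 to 1655 (median 1346) in control liver and fell with a change of -0.15 ± 0.048 (SE), adjusted p = 0.025. With the 5 arrays left out Psme4 had -0.08 (adjusted p = 0.242) and did not pass, and Psme3 had -0.24 (adjusted p = 0.0329). Psme3 and Psme4 lie outside the interferon-induced pair.

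The helper genes stayed close to their control values in the mean. Psmf1, an inhibitor of the core, had 326 to 502 (median 432) in TSR liver and 337 to 512 (median 445) in control liver and a change of -0.022 ± 0.062. Psmg1 and Psmg2, chaperones that pair up to assemble the alpha ring, had changes of 0.035 ± 0.06 and -0.044 ± 0.049. Adjusted p-values of the 3 genes ran from 0.516 to 0.816. The chaperones of the base, Psmd5, Psmd9 and Psmd10, had changes of 0.046, 0.14 and -0.067, of which 0 passed the test.

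The split between the classes was partial sample by sample, and these means are made from the same gene changes as above. The mean deviation of the 16 core genes from the average of the control samples was 0.020 to 0.49 in TSR samples (median 0.22) and -0.079 to 0.14 in control samples (median -0.011). For the 24 regulatory genes it was -0.024 to 0.19 in TSR samples (median 0.079) and -0.042 to 0.048 in control samples (median 0.00079). The core mean exceeded the regulatory mean in all 12 TSR samples, by 0.0079 to 0.42 with a median of 0.096. In control samples the same difference ran from -0.056 to 0.13 with a median of -0.021, and its highest control value was ZT7 replicate 3, one of the 5 arrays. That value lay above the median of the TSR samples. It also lay above all TSR samples at ZT1 (0.0079, 0.075 and 0.044) and below all those at ZT13 (0.198, 0.238 and 0.418). No p-value is given for these class means, as the genes were chosen with results of these data known.

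**Figure D3:**
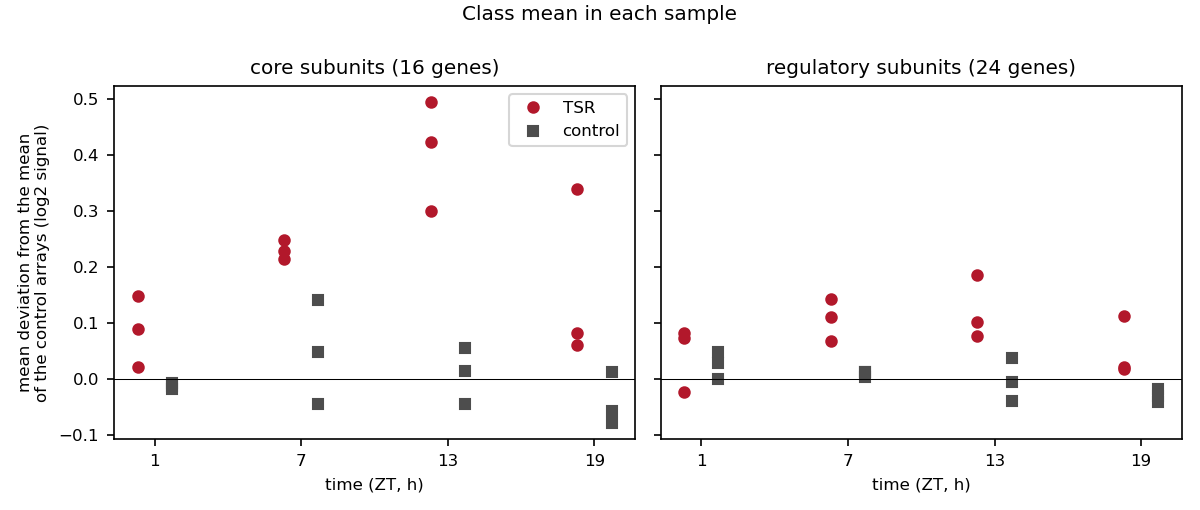
Mean log2 deviation of the core genes (left) and regulatory genes (right) in each sample from the average of the 12 control samples (y axis), against time of day (x axis, ZT in hours), with TSR samples as red circles left of control samples as grey squares. In the core panel the 3 TSR samples at ZT13 stand highest, at 0.30, 0.42 and 0.49, and TSR ZT19 replicate 3 at 0.34 stands above the other two TSR samples of its time.

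The number of genes that passed differed with the time at which the liver was taken. At ZT1, early in the daily restriction, 0 of 43 genes passed the test in limma, against 2.75% of all tested probe sets. An unadjusted p under 0.05 was found in 4 of the 43 genes and in 2491 of the 12814 tested probe sets. The median change was 0.077 in core and 0.0036 in regulatory genes, and in core it was 0.17 without TSR ZT1 replicate 3 and 0.038 without replicate 2. At that time 6 core genes had all TSR samples above all control samples, as did 15.5% of all tested probe sets, and the same held for 8 core genes at ZT7 (20.1% of all) and 7 at ZT19 (22.7% of all).

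At ZT7, just after the restriction ended, 9 genes rose and 1 fell, where 7.52% of all tested probe sets rose and 7.34% fell. They were 5 core genes and 4 regulatory genes, and the gene that fell was Psmd1. Psmb1 signals were 543, 542 and 564 in TSR samples, against 381, 397 and 326 in control samples. The groups did not overlap, and the change was 0.58 ± 0.13 (SE), adjusted p = 0.00985 from the first of its probe sets. Psmc5, an ATPase of the base, had 1036, 1024 and 968 in TSR samples, against 675, 833 and 526 in control samples, a change of 0.60 ± 0.15 (SE), adjusted p = 0.0143. Its control value of 526 was replicate 3, one of the 5 arrays, and without that sample the change was 0.43. The number of ZT7 calls moved with single samples. It was 0 without control ZT7 replicate 3, and 3, 3, 5 and 6 without control replicate 1 or TSR replicates 3, 1 and 2. The shares of all tested probe sets are not given here for these and the later refits without single samples. With the 5 arrays left out 2 passed, where 2.53% of all tested probe sets rose and 2.02% fell. The calls thus became fewer across the table as well. The median of the core genes was then 0.23, against 0.18 with all samples. Without control ZT7 replicate 1 alone that median was 0.066.

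At ZT13, at the start of the dark phase, 16 genes rose and 1 fell, the most at any of the 4 times, where 8.62% of all tested probe sets rose and 9.24% fell. The core particle had 11 of 16 genes higher and a median change of 0.37, and in 14 of its genes all TSR samples exceeded all control samples, as in 16.6% of all tested probe sets. All 3 standard cutting subunits rose. Psmb6 had 810.4, 1137 and 1277 in TSR samples, against 516, 543 and 551 in control samples, a 1.97-fold difference without overlap and the largest change among the tested members (0.98 ± 0.25 (SE), adjusted p = 0.0134). Psma1 signals were 1225, 1192 and 1283 in TSR samples, against 830.1, 826 and 763 in control samples, with a change of 0.61 ± 0.10 (SE), adjusted p = 0.0016. Its TSR samples lay close together and far above the control samples. Psmb5 was at 781, 797 and 706 in TSR samples, against 624, 617 and 518 in control samples, with a change of 0.38 ± 0.092 (SE), adjusted p = 0.0116.

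The immunoproteasome gene Psmb9, which had not moved in the mean, had ZT13 signals of 315, 392 and 345 in TSR samples, against 295, 250.2 and 268 in control samples. The groups were apart, and the change was 0.37 ± 0.11 (SE), adjusted p = 0.0248. Psmb10 had 0.24 ± 0.10 (adjusted p = 0.0976). Among regulatory genes 5 rose and 1 fell, with a median of 0.14, which was 0.079 without TSR ZT13 replicate 2. Psmd13 had 465, 611 and 455 in TSR samples, against 330.1, 358 and 377 in control samples, where replicate 2 of the TSR samples was far above its mates, and the change was 0.51 ± 0.11 (SE), adjusted p = 0.00539. Psmc1 had 593, 603 and 635 in TSR samples, against 421, 433 and 475 in control samples, with a change of 0.46 ± 0.10 (SE), adjusted p = 0.00729. Psme2 rose by 0.61 ± 0.18 from its first probe set, and the second gave 0.17 (adjusted p = 0.44). Psme3 fell with a change of -0.39 ± 0.12 (SE), adjusted p = 0.0338, with signals of 1319, 899 and 912 in TSR samples, against 1349.5, 1322 and 1355 in control samples. Its first TSR sample lay just below the lowest control sample. None of the 5 arrays belongs to ZT13, and 18 members passed there when they were left out, where 9.76% of all tested probe sets rose and 9.43% fell. Leaving out single ZT13 samples left 10 or 11 genes for control replicates 1, 2 and 3 and for TSR replicates 2 and 3.

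At ZT19 8 genes rose and 1 fell, where 8.96% of all tested probe sets rose and 5.95% fell. Psmb3 signals were 713, 715 and 824 in TSR samples, against 400.0, 399.9 and 443 in control samples, a 1.81-fold difference and the largest rise at this time (0.85 ± 0.15 (SE), adjusted p = 0.00608). Psmb1 had 419.8, 451 and 556 in TSR samples, against 322, 286 and 305 in control samples, with a change of 0.64 ± 0.13 (SE), adjusted p = 0.00999 from the first of its probe sets. Psme1, which had no call at the other times, had 2134, 2237 and 2215 in TSR samples, against 1845, 1556 and 1876 in control samples and rose by 0.32 ± 0.10 (adjusted p = 0.0372). The groups did not overlap at that time. All control samples at ZT19 are among the 5 arrays and TSR replicate 3 had the high pancreatic markers, so the difference at ZT19 and the pattern of these arrays cannot be told apart. Without 1 sample of this time 2, 2 and 3 genes passed for control replicates 1, 2 and 3, and 5 and 3 for TSR replicates 1 and 3. In core genes the median change was 0.20, and without TSR replicate 3 it was 0.10. Without that replicate the change of Psmb1 was 0.52 and that of Psmb3 0.79.

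**Figure D4:**
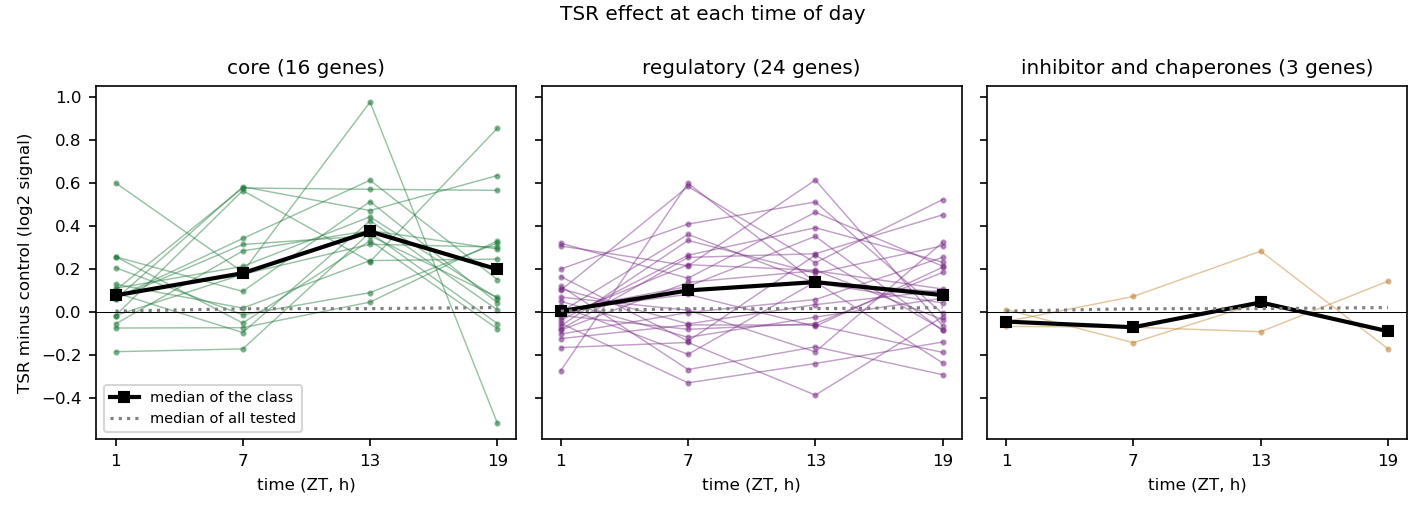
Change of each tested gene (thin lines) as TSR minus control on the log2 scale (y axis) against time of day (x axis, ZT in hours) in the core, regulatory, and inhibitor and chaperone classes, with the median of the class (black squares) and of all tested probe sets (dotted). The core median is 0.077, 0.18, 0.37 and 0.20 at ZT1, ZT7, ZT13 and ZT19, and the regulatory median does not exceed 0.14.

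The change, taken with its sign, was highest at ZT13 in 10 of the 16 core genes, at ZT19 in 5 and at ZT7 in 1. For a gene below control at all 4 times, the highest change is its smallest fall. Across all tested probe sets 23.7% had their highest change at ZT13 and 30.1% at ZT19. Among regulatory genes the times were more even, with 3, 6, 8 and 7 genes at ZT1, ZT7, ZT13 and ZT19. A test of whether the TSR effect differed between the 4 times called 5 of 43 genes, against 20.2% of all tested probe sets. Its unadjusted p was under 0.05 in 15 of the 43 genes and in 5195 of the 12814 tested probe sets. The members were thus not called more often than the table as a whole. The 5 genes called were Psmb6 (adjusted p = 0.0268), Psma1 (0.0294), Psmb3 (0.0297), Psmb9 (0.0343) and Psmc5 (0.0391), 4 of them in the core. Psma1 and Psmb9 had their largest change at ZT13, Psmc5 at ZT7 and Psmb3 at ZT19. Psmb6 had changes of 0.60, 0.19, 0.98 and -0.52 from ZT1 to ZT19, and the value below 0 stood at ZT19, where the control samples were high. With ZT19 left out 2 genes passed, and leaving out single samples gave 2 to 14, the highest without TSR ZT19 replicate 3.

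A rhythm of 24 h was fitted as a cosine in each treatment. In TSR liver 0 of 43 genes passed the limma test, where 2.63% of all tested probe sets passed. The unadjusted p was under 0.05 in 16 of the genes and in 2750 of the 12814 tested probe sets. For control liver an unadjusted p under 0.05 was found in 10 genes and in 3809 tested probe sets. After adjustment 2 genes passed there, where 12.6% of all tested probe sets passed. Both encode lid subunits. Psmd11, a structural lid subunit, had signals in TSR liver of 2223, 2273 and 1579.7 at ZT1, 1903, 2109.5 and 2067 at ZT7, 1972, 1755 and 1673 at ZT13 and 1981, 1804 and 1847 at ZT19. Control liver gave 2126, 2097 and 2215 at ZT1, 2122, 2082 and 1887 at ZT7, 1710.4, 1748 and 1717 at ZT13 and 1529.7, 1636 and 1555 at ZT19. All control samples of the light phase were thus above all those of the dark phase. In TSR liver the phases overlapped, and ZT1 replicate 3, one of the 5 arrays, was the lowest sample. The fitted amplitude on the log2 scale was 0.09 in TSR liver (adjusted p = 0.634) and 0.24 in control liver (adjusted p = 0.00746, peak at 4.29 h). With ZT19 left out, where all control samples belong to the 5 arrays, the control amplitude was 0.175 and did not pass (adjusted p = 0.0551).

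Psmd7 had an amplitude of 0.11 in TSR liver (adjusted p = 0.309) and of 0.14 in control liver (adjusted p = 0.0492), with group means lowest at ZT13 in both, and with ZT19 left out the control amplitude was again 0.14 (adjusted p = 0.0777). A difference in rhythm between the treatments was called in 0 of 43 genes by limma, against 0.375% of all tested probe sets. The unadjusted p was under 0.05 in 7 genes and in 2091 of the 12814 tested probe sets. A change of the rhythm was thus not shown for Psmd11 (adjusted p = 0.497) or Psmd7 (0.673). The study's own gene lists, made with the CircWave program, differ from these calls. Among other members they hold Psmd11 as rhythmic in control liver only, and Psmd7 and Psmd13 as rhythmic in both treatments. Among the core genes in TSR liver the smallest adjusted p for a rhythm was that of Psmb9, at 0.065 with an amplitude of 0.28 and a peak at 11.5 h. Tested without a curve, 1 gene differed among times in TSR liver and 8 in control liver, where 6.71% and 43.2% of all tested probe sets did. Without control ZT7 replicate 3 the cosine test called 13 genes in control liver, and the share of all tested probe sets in that refit is not given here.

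Genes around the proteasome were counted from lists of names. Of 24 tested regulators and partners of the proteasome 2 rose and 4 fell in the mean, where 13.8% of all tested probe sets rose and 13.2% fell. The median of this list was -0.021, beside 0.12 for the proteasome genes and 0.019 for all tested probe sets. Those that fell include Ufd1l, a cofactor of the segregase that feeds the proteasome, with a change of -0.28 ± 0.053 (SE, adjusted p = 0.00125), Zfand5, a proteasome-binding zinc finger protein, with -0.22 ± 0.055 (adjusted p = 0.00637), and Uchl5, a deubiquitinase of the cap, with -0.19 ± 0.051 (adjusted p = 0.0119). Thop1, a cytosolic peptidase that trims the peptides the proteasome releases, rose by 0.18 ± 0.051 (adjusted p = 0.0166). Of the proteasome parts whose symbols fall outside the naming rule, picked after their values were seen, Shfm1 of the lid rose by 0.16 ± 0.058 (adjusted p = 0.0441), while Adrm1, a ubiquitin receptor, had 0.052 (adjusted p = 0.562) and Pomp, the chaperone that matures the core, had 0.036 (adjusted p = 0.493). Nfe2l2, a transcription factor of the oxidative stress response that was picked in the same way, had -0.04 (adjusted p = 0.635).

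Of 13 tested genes of ubiquitin and its activation 4 rose and 2 fell, with a median of -0.017, where 13.8% of all tested probe sets rose and 13.2% fell. Ube2s, a ubiquitin-conjugating enzyme of the cell cycle, ran from 222 to 469 in TSR liver and from 182 to 286 in control liver, with a change of 0.45 ± 0.068 (adjusted p = 0.000258). Rps27a, a ubiquitin fusion with a ribosomal protein, ran from 149 to 305 in TSR liver and from 109 to 162 in control liver, with a change of 0.55 ± 0.092 (adjusted p = 0.000494). Ubb, a polyubiquitin gene, rose by 0.16 (adjusted p = 0.0212). The genes that fell were Uba6, a ubiquitin-activating enzyme, with a change of -0.24 ± 0.089 (adjusted p = 0.0487), and Ube2d3, a ubiquitin-conjugating enzyme, with -0.09 ± 0.033 (adjusted p = 0.0435). Of 12 tested genes of antigen processing and the interferon response 2 rose and 1 fell. Tap2, which moves proteasome peptides into the endoplasmic reticulum, rose by 0.26 ± 0.082 (adjusted p = 0.0254), with 0.86 at ZT13 (adjusted p = 0.00357), and at ZT19 it fell with a change of -0.65 (adjusted p = 0.0171). H2-D1, a class I heavy chain, rose by 0.12 ± 0.040 (adjusted p = 0.0286).

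Markers of the liver's cell types were read from the same arrays. Of the 8 tested hepatocyte markers 4 rose in the mean, namely Alb, Apoa1, Ttr and Serpina1a, by 0.15 to 0.19, where 13.8% of all tested probe sets rose. The median over the 8 markers was 0.13. Their summed signal ran from 67250 to 81880 in TSR liver and from 64010 to 75500 in control liver. Of 6 Kupffer cell and 3 lymphocyte markers 0 passed in the mean, with summed signals over 7 and 9 measured genes of 1867 to 2576 and 705 to 985 in TSR liver compared with 1716 to 2842 and 700.3 to 1016 for control liver. Clec4g of 5 endothelial markers, Dcn and Col3a1 of 4 stellate and fibroblast markers and 2 of 3 erythroid genes rose. The others did not pass in the mean, with Lyve1 (-0.025), Kdr (-0.0021) and Lrat (-0.072) below 0 and Stab2, Pecam1, Col1a1 and Alas2 above 0. At single times Pecam1 fell at ZT1 (adjusted p = 0.0483), Stab2 at ZT7 (0.0156) and Lrat at ZT13 (0.0349). Stab2 rose at ZT13 and ZT19, and Clec4g, Dcn and Hbb-b1 also rose at single times. Of the mesothelial list 1 gene was tested, the keratin gene Krt8, which hepatocytes also express, and it rose by 0.34 ± 0.056 (adjusted p = 0.000443), with 0.62 at ZT7 (adjusted p = 0.0041) and 0.46 at ZT13 (adjusted p = 0.0113). The other 4 genes of that list, Msln, Upk3b, Wt1 and Krt19, lay below the signal filter. The summed signal of the 5 was 1087 to 1756 in TSR liver and 1069 to 1273 in control liver. At ZT7 it was 1603 to 1756 in TSR samples against 1069 to 1128 in control samples. Most of this sum is Krt8, at a mean signal of 985, so it is not separate from the rise of that gene. The part of these markers in the change of the proteasome genes was not tested.

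Promoters were read for 39 of the 47 proteasome genes, as RefSeq sequence of 250 bases before to 50 after the start on build GRCm38.p6. They were searched on both strands for 4 short motifs, chosen after the changes were known, and a match is only a run of letters. The Ets motif CGGAAG lay in 22 of the 39 promoters (56.4%), in 5 of 14 core and 15 of 21 regulatory genes, against 16.9% of all 32851 promoters and 21.1% of those of protein coding genes. The antioxidant response motif TGACNNNGC lay in 6 (15.4%, against 12.4% of all), the CCAAT box in 14 (35.9%, against 37.4%), which were 8 of 14 core and 6 of 21 regulatory genes, and the E-box CACGTG, to which clock proteins can bind, in 4 (10.3%, against 7.15%). The stretches below, 60 bases each on the strand of the gene, are shown for members named above, with the motif of each group on either strand in capitals. The first pair are the cutting subunits with TGACNNNGC, Psmb5 at chr14:54618009-54618068 on the minus strand and Psmb6 at chr11:70525297-70525356 on the plus strand.
Psmb5: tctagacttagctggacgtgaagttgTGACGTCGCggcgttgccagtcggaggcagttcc
Psmb6: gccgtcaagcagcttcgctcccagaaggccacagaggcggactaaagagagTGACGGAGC
The Ets motif also lay in the promoters of Psmd1, Psme3 and Psme4, which fell, and not in those of Psma1 and Psma7, which rose. It is shown in 1 core gene and 3 regulatory genes that rose. They are Psmb3 at chr11:97703224-97703283, Psmc1 at chr12:100110142-100110201 and Psmd13 at chr7:140882276-140882335 on the plus strand and Psmd8 at chr7:29180674-29180733 on the minus strand.
Psmb3: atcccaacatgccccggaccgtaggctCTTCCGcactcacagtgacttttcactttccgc
Psmc1: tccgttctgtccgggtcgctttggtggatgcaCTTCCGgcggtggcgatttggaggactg
Psmd13: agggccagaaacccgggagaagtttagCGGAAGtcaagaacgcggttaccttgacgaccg
Psmd8: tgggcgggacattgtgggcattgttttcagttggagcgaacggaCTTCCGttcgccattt
The CCAAT box is shown in the 2 alpha subunits with the smallest adjusted p, Psma1 at chr7:114276183-114276242 and Psma7 at chr2:180042629-180042688, both on the minus strand.
Psma1: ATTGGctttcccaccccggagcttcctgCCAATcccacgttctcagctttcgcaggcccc
Psma7: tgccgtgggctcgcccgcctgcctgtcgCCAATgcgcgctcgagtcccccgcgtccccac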

How the data were processed

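Total RNA of liver was measured on Affymetrix MoGene ST arrays. The authors used d-Chip for normalization and deposited linear intensities per probe set (lowest value 1), and its settings are not given in the labels or methods. Adipose arrays and the series value table were not used here. Intensities were taken as log2, and 12814 of 28815 probe sets with a symbol and a mean log2 signal above the median of all were fitted with limma 3.58.1 (R 4.3.3), with 8 group means and the contrasts TSR minus control in the mean, at each time and between times, and a 24 h cosine per treatment. Calls have a Benjamini-Hochberg adjusted p under 0.05. Arrays give no read depth, and 3 samples per group limit the precision. The script was tested on simulated data.

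The members, the gene lists and the motifs were chosen with earlier results of these data known. Genes are named by a rule, up to 4 per class with the smallest adjusted p in the mean, the first pair of each other contrast with a call, Psmb5, Psmb8, Psmb9, Psmb10, Psme1 and Psme2, and up to 4 per list, some of which are not reported here. Other genes named in the text were added after their values were seen, so that each subgroup of the particle is complete. Lists of pathway genes and of cell type markers were read from the same fit, with summed signals over all measured genes of a list. RefSeq promoters were searched with Python 3.11.15 and pandas 2.3.3. Alternatives were 2 other filters, quantile normalization, centring, an offset of 16 before log2, a replicate block, array weights, the methods' t-test, time points without a curve, other probe sets, and samples or times left out.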

Additional observations from a re-analysis of the deposited data

Results flagged for a closer look

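In 5 genes the effect of TSR differed between the 4 times by limma's test of that difference, with values per sample given above. Psmb6 (adjusted p = 0.0268) was higher in TSR liver at ZT13, with a log2 change of 0.98, and at ZT19 had -0.52 (adjusted p = 0.15). Its 4 highest control samples were ZT7 replicate 3 and the 3 samples at ZT19, which belong to the 5 arrays with a shared pattern, and the part of that pattern was not tested. Psma1 (adjusted p = 0.0294) had 0.065 at ZT1 and 0.61 at ZT13. Psmb3 (adjusted p = 0.0297) had -0.017 at ZT1 and 0.85 at ZT19, where its control samples were the lowest. Psmb9 (adjusted p = 0.0343) had -0.18 at ZT1 and 0.37 at ZT13. Psmc5 (adjusted p = 0.0391) had -0.27 at ZT1 and 0.60 at ZT7. Groups of 3 were too small for a test of single outlying samples, and leaving out each sample in turn gave 2 to 14 genes.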

How the results depend on the processing

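The number of proteasome genes called in the mean was 22, and it ran from 14 under the methods' t-test (13 higher, 1 lower) to 25. Calls at single times were less stable, with 10 at ZT7, 17 at ZT13 and 9 at ZT19. Without a filter on signal 6 genes passed at ZT7, 0 differed between times and 1 was rhythmic in control liver, against 5 and 2 with the filter. The stricter filter gave 1 rhythmic gene in TSR liver and 5 in control liver. Quantile normalization and centring each gave 1 rhythmic gene in control liver. Array weights gave 5 genes at ZT1, 18 at ZT7, 21 at ZT19, 21 for a difference between times, 10 and 15 for a rhythm in TSR and control liver and 10 for a difference in rhythm. The methods' t-test called 0 genes at ZT7, 0 at ZT13 and 3 at ZT19 after adjustment. Without a curve 1 gene in TSR and 8 in control liver differed among times, where 6.71% and 43.2% of all tested probe sets did. Most other counts of this section stand without the share over all tested probe sets. Calls across the table also moved with the setting, so these counts are not a result about the proteasome genes alone.

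Samples and probe sets left out were chosen after seeing the data. With the 5 arrays of the shared pattern left out 2 genes passed at ZT7, where 2.53% of all tested probe sets rose and 2.02% fell. Leaving out ZT19 gave 2 genes for a difference between times, 2 and 0 for a rhythm in TSR and control liver and 2 for a difference in rhythm. Changes that turned sign were all uncalled, namely Psmf1 at 0.0141 with array weights, Psme1 at -0.00325 without the 5 arrays and -0.0362 without ZT19, and Psmb9 at 0.00435 and Psmd11 at -0.0158 without ZT19. Where causes are not named, the cause was not tested.

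Leaving out each sample in turn gave 18 to 25 genes in the mean, 0 to 1 at ZT1, 0 to 11 at ZT7, 10 to 19 at ZT13, 2 to 12 at ZT19, 2 to 14 for a difference between times, 0 to 2 for a rhythm in TSR liver, 1 to 13 in control liver and 0 to 1 for a difference in rhythm, with Psmb9 at -0.0381 to 0.00843 and Psmf1 at -0.0549 to 0.023. The count for a difference between times was 2 without control ZT1 replicate 2 or 3, ZT13 replicate 3 or ZT19 replicate 1 or 2, 3 without control ZT19 replicate 3 or TSR ZT19 replicate 1, and 8, 12 and 14 without TSR ZT13 replicate 3, TSR ZT13 replicate 1 and TSR ZT19 replicate 3. A rhythm in control liver was called in 1 gene without control ZT1 replicate 1 or 3, ZT7 replicate 1 or 2, ZT13 replicate 1 or 2 or any ZT19 sample, and in 13 without ZT7 replicate 3. In TSR liver it was 1 gene without TSR ZT13 replicate 3 and 2 without TSR ZT19 replicate 3, which also gave 1 gene at ZT1 and 1 for a difference in rhythm.

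Under quantile normalization the whole table split into 1259 higher and 2365 lower calls in the mean, against 1773 and 1691, so the share of higher among called probe sets was 34.7%, against 51.2%. Core genes had 10 higher and 0 lower, against 11 and 0, and regulatory genes had 7 higher and 4 lower in both. The replicate numbers did not pair the samples. Deviations from group means correlated at -0.18 to 0.31 in 12 pairs of TSR and control samples with the same number, 4 of them over 0.1, and at -0.39 to 0.43 in 24 pairs with different numbers. With the replicate number as a block 23 genes passed in the mean, 8 at ZT7 and 1 for a rhythm in control liver. Keeping probe sets that name several genes was not run, as no probe set of the table does. Probe sets not above the filter and arrays with 3 samples a group limit what small changes could be seen.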
